A study of Mus musculus with 12 samples.

Results

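The genes described here are 10 regulators of mitochondrial and fatty acid oxidation genes: Ppargc1a, Ppargc1b, Ppara, Ppard, Esrra, Esrrb, Esrrg, Nrf1, Tfam and Perm1. They were chosen by name from the 56350 genes of the table, and all 10 were among the 13916 genes tested, each with a normalised read count of at least 10 in all 12 libraries. Polyadenylated RNA came from the left ventricle apex of mice 8 weeks after surgery, with 3 libraries in each of 4 groups. Knockout TAC animals lacked Trp53cor1, the gene of the p53-induced noncoding RNA lincRNA-p21, in the whole body and had undergone TAC, in which the transverse aorta is constricted so that the ventricle pumps against a higher pressure. Knockout sham animals had the same genotype and a sham operation. Control TAC and control sham animals were littermates given as lincRNA-p21 heterozygous, so the controls had also lost an allele. The sources used here give neither the strain, the age nor the number of animals behind a library, so p-values measure the spread between libraries.

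Ppargc1a and Ppargc1b encode the PGC-1 coactivators, which do not bind DNA themselves but are recruited by nuclear receptors and switch on genes of oxidative metabolism. In heart muscle the PPAR receptors (Ppara, Ppard) bind DNA with RXR partners at genes of fatty acid uptake and oxidation. The estrogen-related receptors (Esrra, Esrrb, Esrrg) bind genes of the citric acid cycle and oxidative phosphorylation without a known natural hormone. Nrf1, nuclear respiratory factor 1, activates nuclear genes of the respiratory chain and Tfam, whose protein packs and transcribes mitochondrial DNA. Perm1 is a muscle regulator induced by PGC-1 and ERR proteins. Hearts depend on fatty acid oxidation for much of their energy, which is why this network is followed in models of pressure overload.

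The table yielded between 10323605 and 13238934 reads per library. Trp53cor1 had 0 reads in each of the 6 knockout libraries and 11 reads in total over the 6 control libraries, 2 of which also had 0, so it checks the labels only weakly. All 10 cardiomyocyte and all 8 fibroblast markers were detected in every group. One library stood apart: control sham replicate 3 had a score of −46.8 on the second principal component, which carried 14.4% of the variance, and 12.5% of its reads were mitochondrial, the lowest share of all. It was also the lowest of its group for each regulator except Nrf1, so values with and without it are given where a call turns on it. The unit is the normalised read count, the reads of a gene after division by a size factor of the library, with mean ± SD and n = 3. A change is the difference of 2 group means of log2(value + 1), with its SE. A gene passed when its p from limma-trend, adjusted over all genes tested, was under 0.05.

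The start regions of 9 regulators were found in RefSeq as 14 windows of GRCm38.p6, from 250 bases before to 50 bases after a transcript start; Ppargc1b is named only. Both strands were searched for sites of these same factors. These were the ERR response element (TCAAGGTCA, and TNAAGGTCA with an open second base, which holds the other), the PPAR response element (a direct repeat of AGGTCA with 1 base between), the palindromic NRF1 site and the cAMP response element (TGACGTCA), through which Ppargc1a is classically induced. The NRF1 core (GCATGCGC) lies within the NRF1 site, and the core TGACGT within the cAMP response element. The shorter forms and the cAMP response element were added after the first search. The 3 windows with a match are shown for the 250 bases before the start, 5′ to 3′ on the gene's strand, with the match in capitals. The Ppargc1a window (chr5:51567726-51567975, minus strand) holds the cAMP response element core on the opposite strand, 50 bases before the start. In Ppara (chr15:85735526-85735775, plus strand) the capitals mark the full NRF1 site, and in Esrra (chr19:6921809-6922058, minus strand) the NRF1 core.
Ppargc1a: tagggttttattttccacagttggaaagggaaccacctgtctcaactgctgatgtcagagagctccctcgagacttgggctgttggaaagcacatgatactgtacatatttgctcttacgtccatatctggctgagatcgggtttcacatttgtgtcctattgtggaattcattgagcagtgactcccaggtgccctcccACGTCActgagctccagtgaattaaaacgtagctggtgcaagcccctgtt
Ppara: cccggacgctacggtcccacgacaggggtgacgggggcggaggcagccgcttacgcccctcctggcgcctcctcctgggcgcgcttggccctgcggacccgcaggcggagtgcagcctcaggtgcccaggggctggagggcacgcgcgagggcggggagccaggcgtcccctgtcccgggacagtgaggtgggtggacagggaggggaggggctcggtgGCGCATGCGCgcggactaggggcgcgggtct
Esrra: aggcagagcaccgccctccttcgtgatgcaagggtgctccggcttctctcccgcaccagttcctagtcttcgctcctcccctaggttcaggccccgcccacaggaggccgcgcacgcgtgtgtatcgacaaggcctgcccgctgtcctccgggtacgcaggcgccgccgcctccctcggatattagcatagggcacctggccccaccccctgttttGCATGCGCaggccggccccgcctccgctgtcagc

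The NRF1 site occurred in the windows of 1.07% of all genes with a RefSeq window, the NRF1 core in 3.05% and the cAMP response element core in 8.37%. No window of the 9 regulators held an ERR response element in either form, a PPAR response element or a full cAMP response element, letters found in the windows of 0.466%, 1.43%, 0.0481% and 2.03% of genes. The windows differ in base composition: the GC share of the 250 bases was 48.0% for Ppargc1a, 76.4% for Ppara and 68.4% for Esrra, where the median of all windows was 52.4%. A match describes letters and is not evidence of binding.

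Per kilobase of annotated exon, a rough scale for comparing different genes, Perm1 was the most abundant regulator in every group and Nrf1 the least. The order and the family shares depend on this length, which was 10282 bases for Nrf1 and 3990 for Ppargc1b. Before division, Nrf1 and Ppargc1b had close means in knockout TAC hearts (168 and 174) and control sham hearts (198 and 204). Their means lay further apart in the other groups. The Perm1 level was 1538 ± 76.7 counts per kb in knockout TAC hearts, 1658 ± 35.6 in knockout sham hearts, 1427 ± 87.9 in control TAC hearts and 1483 ± 252 in control sham hearts. Esrra came next, with levels of 364 ± 15.1, 446 ± 33.9, 316 ± 3.25 and 426 ± 15.2 counts per kb in knockout TAC, knockout sham, control TAC and control sham hearts. Ppargc1a followed Esrra in each group. In control TAC hearts its level of 314 ± 121 counts per kb overlapped that of Esrra, and in the other groups it lay below Esrra in every library. Tfam, Ppara, Esrrb, Esrrg, Ppargc1b and Ppard followed between 43.5 and 158 counts per kb as group means, with an order that differed between groups and neighbours that mostly overlapped. Nrf1 stayed between 16.3 and 20.2 counts per kb and below every other regulator in the knockout TAC, knockout sham and control TAC libraries. In control sham replicate 3 Esrrg had 12.6 counts per kb, below that library's 21.4 for Nrf1.

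**Figure D1:**
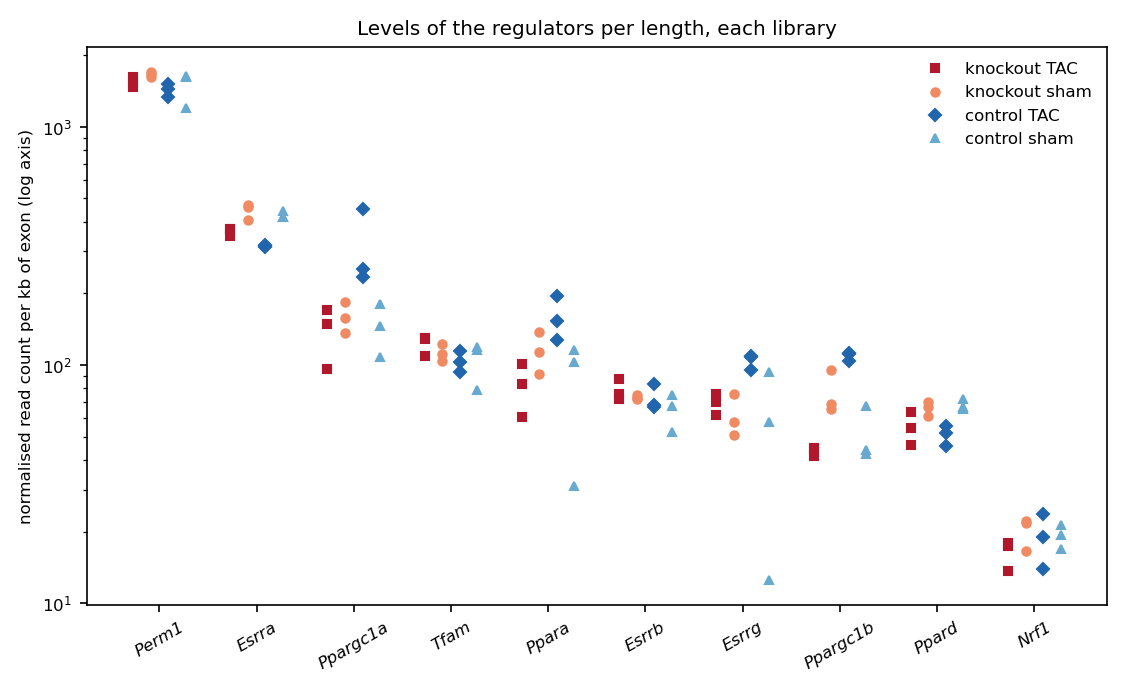
Normalised read counts per kilobase of exon (log axis) for the 10 regulators, ordered by their mean over 12 libraries; each point is a library, coloured by group. Perm1 lies at 1193 counts per kb or above in every library, Nrf1 lies at 13.7 to 23.7, and the low Ppara and Esrrg points belong to control sham replicate 3.

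Of the regulators, the PGC-1 coactivator Ppargc1b showed the clearest differences between groups, and the calls of Ppargc1a depended more on single libraries. Ppargc1b, on chromosome 18, encodes the less studied PGC-1 coactivator of oxidative tissues. Its mean was lowest in knockout TAC hearts, which had 176, 166 and 179 normalised counts. The gene had 273, 380.4 and 261 in knockout sham hearts, 413, 444 and 447 in control TAC hearts, and 268, 176 and 169 in control sham hearts. Every control TAC library lay above all 9 others, and the 3 knockout TAC libraries lay close together. After TAC, the mean was 174 ± 6.50 in knockouts against 435 ± 18.6 in controls.

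The TAC effect on Ppargc1b differed between the genotypes. In controls it rose 2.13-fold, a change of 1.12 ± 0.18 (limma-trend adjusted p = 0.00089). In knockouts the TAC mean was 0.570 times the sham mean, a change of −0.79 ± 0.18 that did not pass (limma-trend adjusted p = 0.412, unadjusted p = 0.00044), although the libraries did not overlap. DESeq2 on the recovered reads called it (adjusted p = 0.0383). The difference of these TAC effects was −1.91 ± 0.26 and passed (limma-trend adjusted p = 0.0043), at rank 3 by p of 13916 genes. After TAC, knockouts had 0.400 times the control mean, a change of −1.32 ± 0.18 (limma-trend adjusted p = 0.0010). After sham the change was 0.59 ± 0.18 and did not pass (limma-trend adjusted p = 0.934, unadjusted p = 0.0048), with 1 control sham library inside the knockout range. The rise with TAC in controls, the lower level in knockouts after TAC and the difference of effects passed in all 12 fits that each left out 1 library. Across those fits the difference of effects ran from −2.12 to −1.74.

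Ppargc1a, the coactivator induced by cold, fasting and exercise (chr5:51454250-51567726), had 979, 633 and 1124 normalised counts in knockout TAC hearts and 901, 1218 and 1040.3 in knockout sham hearts. Control TAC hearts had 1671, 2988 and 1546, against 958, 1187 and 715 in control sham hearts. The 3 control TAC libraries were above all others, and 1 of them was far above its own group. In controls Ppargc1a rose 2.17-fold with TAC, a change of 1.08 ± 0.26 (limma-trend adjusted p = 0.012). The call was lost without control sham replicate 3 (0.89, adjusted p = 0.0829). In knockouts the change with TAC was −0.24 ± 0.26 (limma-trend adjusted p = 0.910), with a 95% interval of −0.81 to 0.33.

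After TAC, Ppargc1a was lower in knockouts than in controls, at 0.441 times the control mean, a change of −1.16 ± 0.26 (limma-trend adjusted p = 0.0194). That call was lost without control TAC replicate 2 (−0.86, adjusted p = 0.0657), the highest library. It was also lost without knockout TAC replicate 1 (adjusted p = 0.0577) or replicate 2 (adjusted p = 0.0987). The difference of TAC effects, −1.32 ± 0.37, did not pass (limma-trend adjusted p = 0.123), and DESeq2 called it (adjusted p = 0.0129). After sham the groups overlapped, with a change of 0.16 ± 0.26. As a share of both coactivators per kilobase, Ppargc1b overlapped between TAC and sham in each genotype, at 24.6 ± 5.0% in knockout TAC, 32.2 ± 2.5% in knockout sham, 27.0 ± 6.5% in control TAC and 26.5 ± 6.2% in control sham hearts.

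**Figure D2:**
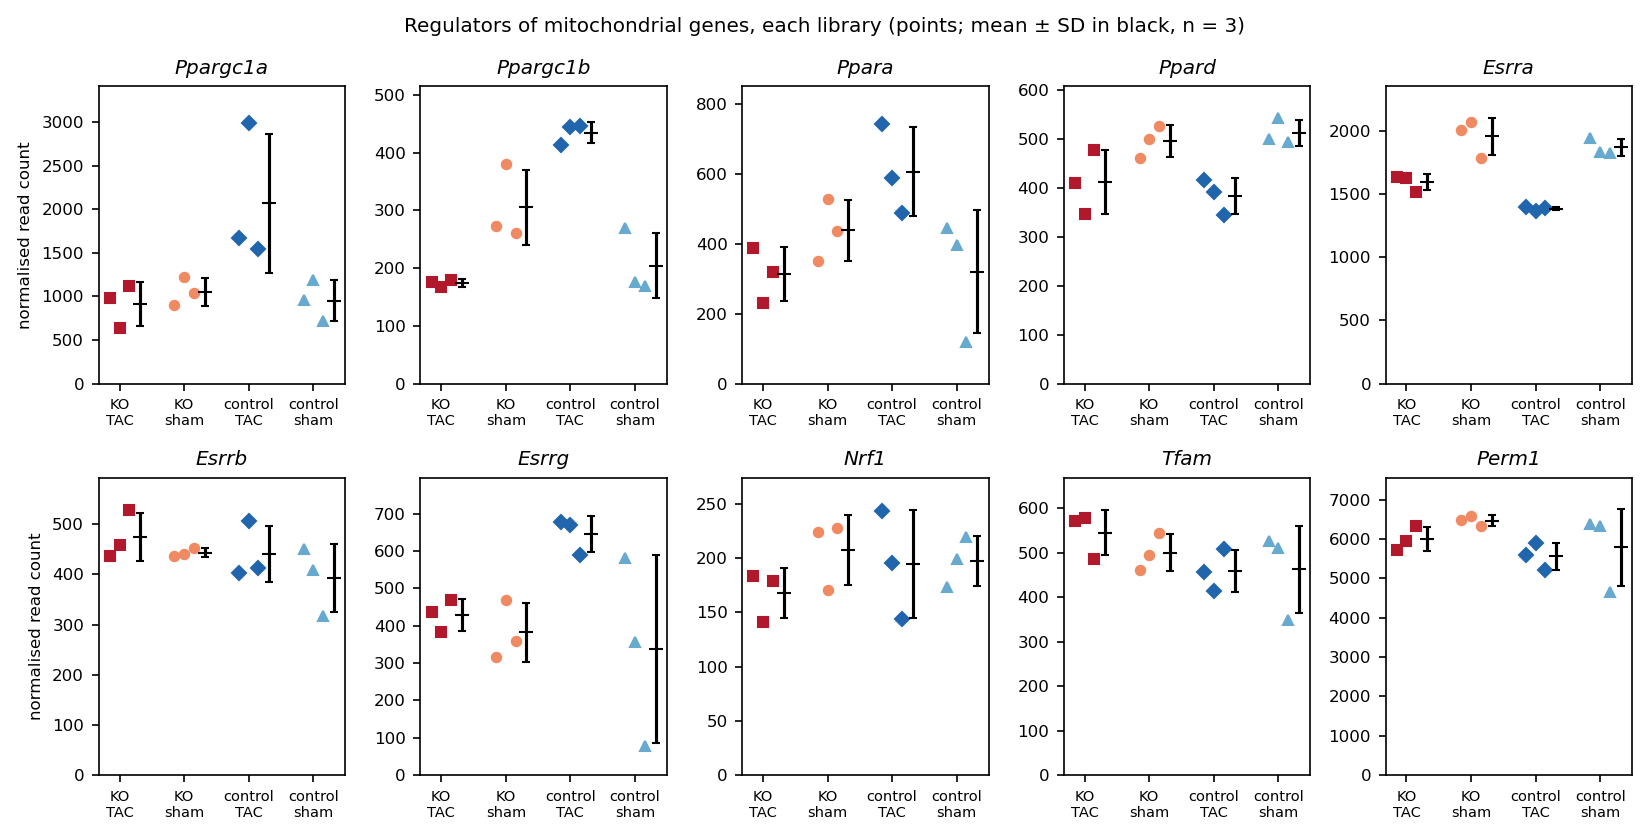
Normalised read counts of the 10 regulators, a panel per gene; each point is a library, grouped by knockout (KO) or control and by surgery, with mean ± SD in black (n = 3). Ppargc1b lies at 166 to 179 in knockout TAC hearts and at 413 to 447 in control TAC hearts, while Nrf1, Tfam and Esrrb overlap between groups.

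Of the PPAR receptors, Ppard fell with TAC in controls and Ppara, which varied more between libraries, did not pass. Ppara, the main fatty acid sensing receptor of the heart (chr15:85734983-85802819), had 387, 232 and 321 normalised counts in knockout TAC hearts and 352, 528 and 436 in knockout sham hearts. It had 744, 589 and 489 in control TAC hearts and 445, 397 and 119.5 in control sham hearts. All control TAC libraries exceeded the control sham and the knockout TAC libraries. The changes did not pass: 1.11 ± 0.42 for TAC in controls (limma-trend adjusted p = 0.084) and −0.96 ± 0.42 for knockouts against controls after TAC (limma-trend adjusted p = 0.184). Control sham replicate 3 widened the spread of Ppara. Without it, the lower level in knockouts than in controls after TAC passed at the same size (limma-trend adjusted p = 0.0062). The gain was not particular to Ppara, since 2144 genes passed this comparison in that fit, against 1145 with all libraries. The change with TAC in controls was smaller without control sham replicate 3, at 0.51, and did not pass. Without control sham replicate 1 it was 1.45 and passed (limma-trend adjusted p = 0.0332).

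Ppard, the widely expressed PPAR (chr17:28232700-28301474), had 409, 347 and 478 normalised counts in knockout TAC hearts and 461, 499.9 and 527 in knockout sham hearts. It had 416, 391 and 344 in control TAC hearts, against 501, 543 and 493 in control sham hearts. Control TAC libraries all lay below control sham libraries, and the knockout groups overlapped. Ppard fell with TAC in controls, to 0.749 times the sham mean, a change of −0.42 ± 0.14 (limma-trend adjusted p = 0.039). The call held in only 4 of the 12 fits that left out a library, with adjusted p from 0.0243 to 0.129. It was lost without control sham replicate 2, any control TAC library, any knockout sham library or knockout TAC replicate 1. In knockouts the change was −0.28 ± 0.14 (limma-trend adjusted p = 0.735), and the difference of TAC effects was 0.14 ± 0.19, with a 95% interval of −0.27 to 0.55.

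Within the PPAR family, counted per kilobase with Pparg, Ppara made up 42.2 ± 5.7% in knockout TAC, 49.0 ± 4.8% in knockout sham, 60.0 ± 3.8% in control TAC and 36.7 ± 16.6% in control sham hearts. The 3 control TAC shares were the highest of all 12 libraries. Ppard made up 19.6 ± 1.1% there, lower than in any other library. These shares were not tested, and a higher share of one gene lowers the others.

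Of the ERR receptors, Esrra fell with TAC in controls, and Esrrg and Esrrb did not pass. Esrra, the most abundant ERR (chr19:6910977-6921813), had 1638, 1630.5 and 1519 normalised counts in knockout TAC hearts, against 2010.2, 2069 and 1788 in knockout sham hearts. It had 1396, 1369 and 1390.1 in control TAC hearts, against 1947, 1835 and 1827 in control sham hearts. TAC libraries lay below sham libraries in both genotypes, and control TAC libraries below knockout TAC libraries. Esrra fell in controls to 0.741 times the sham mean, a change of −0.43 ± 0.11 (limma-trend adjusted p = 0.0129) that passed in all 12 fits leaving out a library. In knockouts the change was −0.29 ± 0.11 and did not pass (limma-trend adjusted p = 0.680). The difference of TAC effects was 0.14 ± 0.16, with a 95% interval of −0.19 to 0.47. After TAC the change between knockouts and controls was 0.20 ± 0.11 (limma-trend adjusted p = 0.274). The annotation places 73 bases of Esrra exon on the strand opposite Trmt112, which had 2 to 13 reads in any library.

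Esrrg, an ERR enriched in heart and oxidative muscle (chr1:187608791-188214885), had 435, 383 and 468 normalised counts in knockout TAC hearts and 317, 469.8 and 358 in knockout sham hearts. It had 677, 669.5 and 590.2 in control TAC hearts, against 581, 357 and 78.0 in control sham hearts. The control TAC libraries were the highest of all, and the control sham libraries spanned the widest range of any regulator relative to their mean. With TAC in controls the change was 1.34 ± 0.58 (limma-trend adjusted p = 0.126), and it passed without control sham replicate 1 (1.94, adjusted p = 0.0189). Without control sham replicate 3 that change was smaller, at 0.5, and did not pass. Knockouts against controls after TAC gave −0.59 ± 0.58 (limma-trend adjusted p = 0.571). Without control sham replicate 3, whose value sets much of this gene's spread, the same change passed (limma-trend adjusted p = 0.0300). In that fit 2144 genes passed this comparison, against 1145 with all libraries.

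Esrrb, an ERR best known from pluripotent stem cells (chr12:86361117-86521628), had 436, 458 and 529 normalised counts in knockout TAC hearts and 436, 441 and 453 in knockout sham hearts. It had 403, 506 and 413 in control TAC hearts and 451, 408 and 318 in control sham hearts. All groups overlapped, and no change of Esrrb passed. As a share of the 3 ERR genes per kilobase, Esrra made up 71.1 ± 2.7% in knockout TAC, 76.8 ± 1.8% in knockout sham, 64.1 ± 2.0% in control TAC and 78.7 ± 7.1% in control sham hearts. Esrrg made up 13.5 ± 1.3%, 10.6 ± 1.7%, 21.1 ± 1.2% and 9.49 ± 6.4% in knockout TAC, knockout sham, control TAC and control sham hearts. Control TAC hearts thus had the lowest Esrra and the highest Esrrg shares, with no overlap with the other groups. The shares were not tested, and within a family a higher share of one gene lowers the others. Of the genes behind them, Esrra passed with TAC in controls. Esrrg did not pass there or between knockouts and controls after TAC (limma-trend adjusted p = 0.126 and 0.571).

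**Figure D3:**
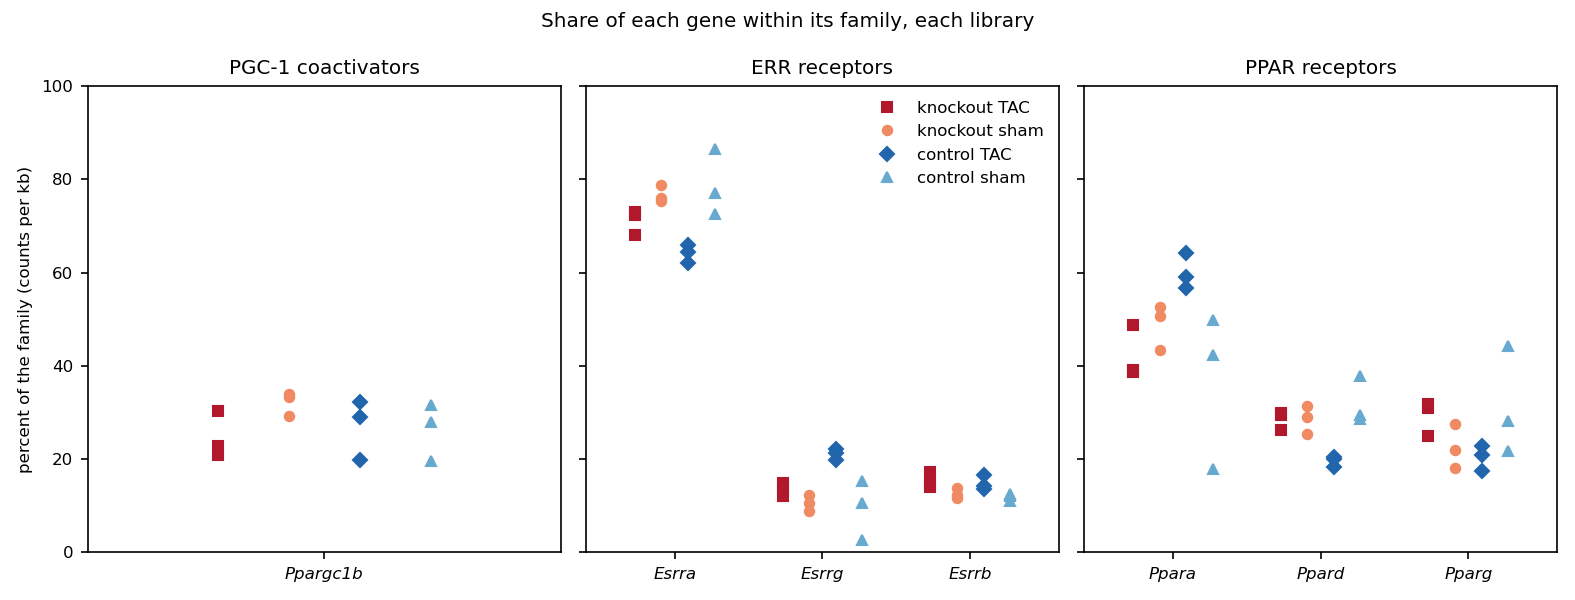
Share of each gene in the summed counts per kilobase of its family (percent), a point per library. Esrra lies at 62.0 to 66.0% of the ERR genes in control TAC hearts and above that in the other groups, and Ppara is highest in control TAC hearts.

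Nrf1, Tfam and Perm1 passed in no comparison. Nrf1 (chr6:30047988-30153458) had 183, 141 and 179 normalised counts in knockout TAC hearts and 224, 171 and 228 in knockout sham hearts. In control TAC hearts it had 243, 196 and 144, and in control sham hearts 174, 199 and 219.6. Its groups overlapped throughout, and its change with TAC in controls was −0.05 ± 0.19, with a 95% interval of −0.46 to 0.36.

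Tfam (chr10:71225464-71238280) had 572, 578 and 486 normalised counts in knockout TAC hearts and 462, 494 and 545 in knockout sham hearts. It had 457, 414 and 508 in control TAC hearts and 527, 512 and 349 in control sham hearts. The lowest value again came from control sham replicate 3, and the groups overlapped. Its change with TAC was 0.01 ± 0.16 in controls. Between knockouts and controls after TAC it was 0.25 ± 0.16 (limma-trend adjusted p = 0.353), with a 95% interval of −0.09 to 0.58.

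Perm1 (chr4:156215868-156221307) had 5729, 5946 and 6320.2 normalised counts in knockout TAC hearts and 6492, 6594 and 6319.7 in knockout sham hearts. It had 5604, 5888 and 5205 in control TAC hearts and 6385, 6321 and 4653 in control sham hearts. Outside control sham replicate 3 the libraries spanned a narrow range. The change with TAC in controls was −0.04 ± 0.13, with a 95% interval of −0.32 to 0.24, and after TAC the change between knockouts and controls was 0.11 ± 0.13.

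Counted over the regulators, TAC in controls changed 4 of 10, with Ppargc1a and Ppargc1b rising and Ppard and Esrra falling, where 21.6% of all genes tested passed, 11% as higher and 10.6% as lower. The libraries of both groups did not overlap for 6 of 10 regulators, against 35.5% of all genes. With TAC in knockouts 0 of 10 passed in limma-trend, where 0.00719% of all genes did. At an unadjusted p under 0.05 there were 2 of 10, Ppargc1b and Esrra, edgeR called 0 and DESeq2 called 1. Libraries did not overlap for these 2, against 17.2% of genes. Between knockouts and controls after TAC 2 of 10 passed, both lower, where 8.23% of genes passed and 4.13% passed as lower. Libraries did not overlap for 5 of 10, against 31.1% of genes.

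After sham surgery 0 of 10 regulators passed between knockouts and controls in limma-trend, where 0% of all genes did, and edgeR and DESeq2 called 0 of 10. At an unadjusted p under 0.05 there was 1, Ppargc1b, and all 10 regulators overlapped, against 9.62% of genes without overlap. For the difference of TAC effects 1 of 10 passed, Ppargc1b, where 0.309% of genes passed. The median change of the 10 regulators was 0.09 for TAC in controls and −0.05 for knockouts against controls after TAC, while the medians over all genes were 0.01 and 0.01. The comparisons share libraries: the control TAC libraries enter both, and a deviation in them moves these changes in opposite directions.

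**Figure D4:**
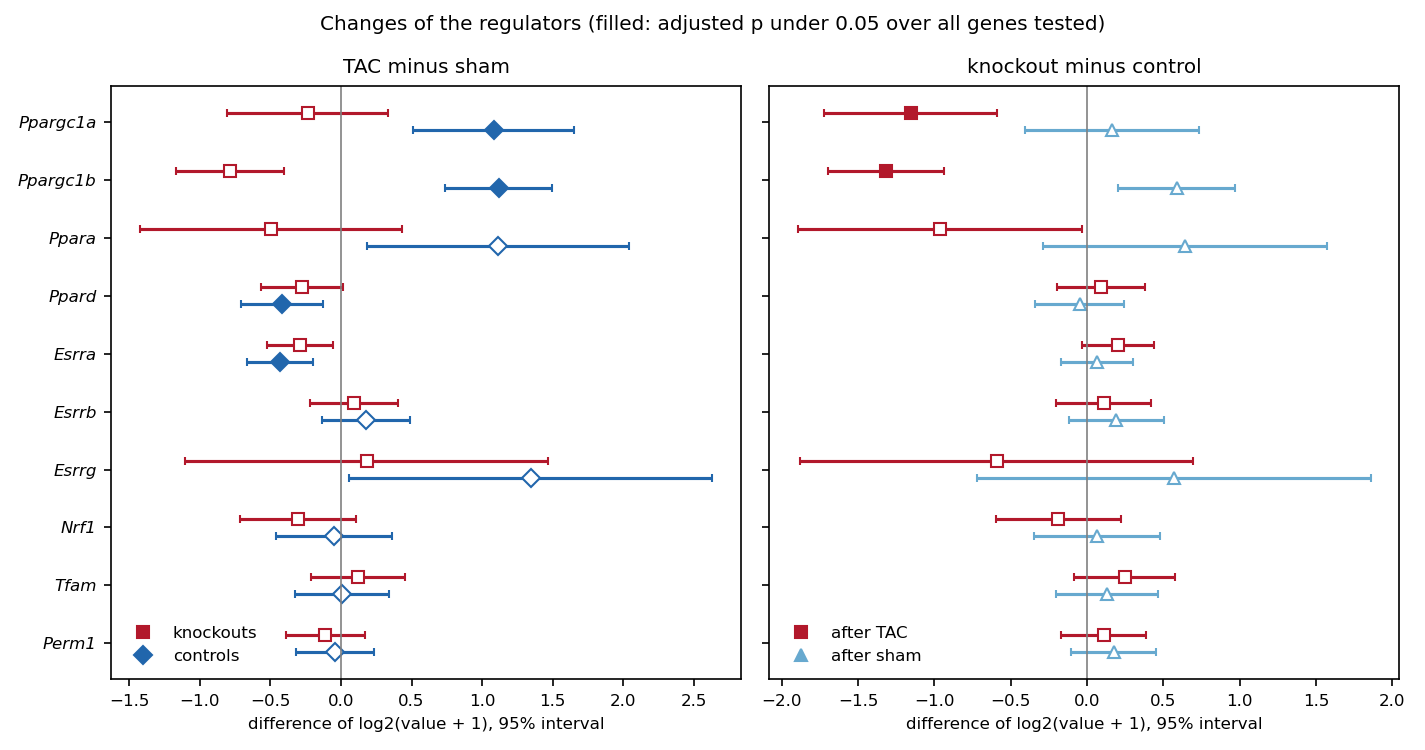
Difference of log2(value + 1) for each regulator with its 95% interval, for TAC minus sham (left) and knockout minus control (right); filled symbols passed an adjusted p under 0.05 over all genes tested. Ppargc1b lies at −0.79 in knockouts and 1.12 in controls with TAC, and at −1.32 after TAC and 0.59 after sham between genotypes.

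The proteins that work with these regulators, 32 partners and coregulators, were mixed. With TAC in controls 8 rose and 4 fell, where 11% of all genes rose and 10.6% fell. With the trend over transcript length and GC content removed 1 rose and 2 fell, where 1521 of 13906 genes passed. Rxrg, an RXR partner of PPARs, fell to 668 ± 97.2 normalised counts in control TAC hearts, against 1109.5 ± 159 in control sham hearts. Nrip1, a corepressor of ERRs and PPARs, rose to 276 ± 19.6 in control TAC hearts, against 158 ± 29.8 in control sham hearts. The corepressor Ncor1 and the acetyltransferase Ep300 rose by 0.63 ± 0.15 and 0.64 ± 0.15 on the log2 scale. Leaving out control sham replicate 2 or 3 or any control TAC library brought the count of rising genes to 4 or 5. The count of falling genes was 1 or 2 without control sham replicate 2, knockout sham replicate 2 or 3, any control TAC library or knockout TAC replicate 1.

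After TAC, 3 partners fell and 1 rose between knockouts and controls, where 4.13% of all genes fell and 4.1% rose. Nrip1 had 166 ± 21.7 in knockout TAC hearts, against 276 ± 19.6 in control TAC hearts, and Ep300 had 525 ± 59.2 against 825 ± 83.1. Rxrg rose by 0.49 ± 0.14 on the log2 scale, a call lost without any knockout sham library, knockout TAC replicate 1 or 2 or replicate 1 or 2 of the control TAC group. With the length and GC trend removed 0 partners passed. The count of falling partners was 0 without knockout TAC replicate 2 or without replicate 1 or 2 of the control TAC group, and 1 without knockout TAC replicate 1. It was 6 without control sham replicate 1 or 3 or knockout TAC replicate 3.

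The target genes of the receptors that passed with TAC in controls fell, while both PGC-1 coactivators rose. Of 24 tested ERR and NRF1 target genes, 13 fell and 0 rose with TAC in controls, with a median change of −0.51, where 10.6% of all genes fell. The subunits of cytochrome c oxidase led: Cox5b had 2299 ± 66.5 normalised counts in control TAC hearts, against 4186 ± 777 in control sham hearts, and Cox4i1 had 16595 ± 148 against 30215 ± 5042. Cox6c and Cox6a2 fell by 0.87 and 0.90 on the log2 scale. Of 31 PPAR target genes 7 fell and 0 rose, 11 fell without control sham replicate 3, and 2 rose without control sham replicate 1. Among them Ech1 and Acaa2, enzymes of fatty acid oxidation, had 11674 ± 483 and 8158 ± 1029 in control TAC hearts, against 26356 ± 2169 and 17019 ± 111 in control sham hearts. Plin5, a lipid droplet protein, and Mlycd, which degrades malonyl-CoA, fell by 0.74 and 0.64 on the log2 scale. In sum over markers, the 8 fibroblast genes ran from 16230 to 17470 normalised counts in control TAC hearts and from 12187 to 14873 in control sham hearts, and the 10 cardiomyocyte genes from 933461 to 1008636 and from 1009089 to 1030515. That sum covers opposite changes, since 3 of the 10 cardiomyocyte genes rose and 4 fell, with Ttn at 1.97 ± 0.24 and Tnni3 at −0.98 ± 0.14 on the log2 scale. Of the 8 fibroblast genes 2 rose and 0 fell, with changes from −0.67 to 0.52. Erythroid markers, 6 in number, summed to 2407 to 4123 in control TAC hearts and 6159 to 6729 in control sham hearts, and 10 mesothelial markers to 118 to 230 and 238 to 584. The 11 endothelial markers summed to 16683 to 17387 in control TAC hearts and 17917 to 28378 in control sham hearts, and the 4 smooth muscle markers to 897 to 1562 and 1594 to 3104. All of these sums were without overlap between the groups. Of the endothelial and smooth muscle genes 0 changes were above 0, and 0 of 11 and 1 of 4 passed. The 8 macrophage markers overlapped, at 2255 to 3521 in control TAC hearts and 2861 to 3682 in control sham hearts. So did the 8 fast skeletal muscle markers, at 30.3 to 46.4 and 39.4 to 48.4. The part of these markers in the results was not tested, and in bulk tissue fewer cells of a type and less RNA per cell cannot be told apart.

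Between knockouts and controls after TAC, 15 of 24 ERR and NRF1 target genes rose and 0 fell, with a median change of 0.44, where 4.1% of all genes rose. Slc25a4, the ADP/ATP carrier of heart mitochondria, had 82883 ± 8186 normalised counts in knockout TAC hearts, against 52609.8 ± 1806 in control TAC hearts. Sdhb and Fh1, of the citric acid cycle, rose by 0.64 ± 0.13 and 0.56 ± 0.11, and Cox6c by 0.76 ± 0.15. With trends over length and GC content removed, 9 rose. The count was 0 without knockout TAC replicate 1, 2 without knockout TAC replicate 2, 4 without control TAC replicate 1 and 6 without control TAC replicate 2. Of the PPAR target genes 5 of 31 rose and 0 fell, among them Ech1 (0.91 ± 0.13), Acaa2 (0.81 ± 0.12), Mlycd (0.62 ± 0.12) and Decr1 (0.55 ± 0.12). The count was 12 without control sham replicate 3, and 2 without knockout TAC replicate 1 or 2 or without control TAC replicate 2. The summed fibroblast markers were 10429 to 14126 in knockout TAC hearts and 16230 to 17470 in control TAC hearts, and the cardiomyocyte markers 1024357 to 1117629 and 933461 to 1008636. Of the 10 cardiomyocyte genes 5 rose and 2 fell, with Tnni3 at 0.78 ± 0.14 and Ttn at −1.72 ± 0.24 on the log2 scale. Of the 8 fibroblast genes 0 rose and 4 fell, with changes from −0.92 to 0.49. The endothelial sums did not overlap either, at 17536 to 19353 in knockout TAC hearts and 16683 to 17387 in control TAC hearts, and 0 of the 11 genes passed. Of 5 tested erythroid genes 2 rose, with a median change of 1.07, and of 9 tested mesothelial genes 2 rose, with a median change of 2.17. Their sums overlapped, at 3146 to 10438 and 210 to 447 in knockout TAC hearts, against 2407 to 4123 and 118 to 230 in control TAC hearts. The macrophage, smooth muscle and fast skeletal muscle sums overlapped as well. The part of these markers in the results was not tested.

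Of 25 tested genes of mitochondrial DNA maintenance and transcription, Rrm2b rose and 4 fell with TAC in controls. This was close to the share over all genes tested, of which 21.6% passed. Dguok, which supplies nucleotides for mitochondrial DNA, had 237 ± 37.5 normalised counts in control TAC hearts, against 348 ± 5.26 in control sham hearts. Polrmt, the mitochondrial RNA polymerase that works with Tfam, fell by 0.43 on the log2 scale, and Mrpl12, a ribosomal protein that binds it, by 0.49. Without control TAC replicate 2, 0 of the 25 passed, and without control sham replicate 3 the count of rising genes was also 0. After TAC Mrpl12 had 1548 ± 295 in knockout TAC hearts, against 1036 ± 61.05 in control TAC hearts. It alone of these 25 passed between knockouts and controls, where 8.23% of all genes passed. That count was 0 without knockout TAC replicate 1 or 2 or without replicate 1 or 2 of the control TAC group, and 2 without control TAC replicate 3 or control sham replicate 1. Of 7 tested mitochondrially encoded mRNAs, mt-Nd5 rose with TAC in controls (0.72 ± 0.23, limma-trend adjusted p = 0.0385), where 11% of all genes rose. The count of rising mRNAs was 2 without control sham replicate 1 and 0 in the other 11 fits that left out a library. Between knockouts and controls after TAC mt-Nd4 (0.70 ± 0.13) and mt-Cytb (0.46 ± 0.14) rose, where 4.1% of all genes rose. That count was 5 without control sham replicate 3, 3 without control sham replicate 1 and 1 in the other 10 such fits. With the length and GC trend removed 0 mitochondrially encoded mRNAs passed in either comparison, and mt-Nd5 was not called by edgeR. In the maintenance list that setting left 0 rising and 2 falling genes with TAC in controls, and 0 between knockouts and controls after TAC. The mitochondrial share of reads was 19.1 to 19.99% in knockout TAC, 14.7 to 16.8% in knockout sham, 15.5 to 17.1% in control TAC and 12.5 to 18.7% in control sham hearts.

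With TAC in knockouts 0 of the 119 genes in these 5 lists passed in limma-trend, 11 had an unadjusted p under 0.05, and edgeR and DESeq2 called 0. With quality weights, 7 partners fell there, 1 PPAR target gene rose and 7 fell, and 1 ERR and NRF1 target gene rose and 2 fell. In the same setting 2 maintenance genes rose and 1 fell, and 5 mitochondrially encoded mRNAs rose. After sham 0 of 119 passed between genotypes, 12 had an unadjusted p under 0.05, and edgeR and DESeq2 called 0. For the difference of TAC effects 0 of 119 passed, 27 had an unadjusted p under 0.05, edgeR called 0 and DESeq2 called 14. Of all 13916 genes, 929 had an unadjusted limma-trend p under 0.05 with TAC in knockouts, 604 after sham and 2292 for the difference. With quality weights 9 partners had a negative difference and 1 a positive one, and the difference was positive for 7 PPAR target genes, 15 ERR and NRF1 target genes, 3 maintenance genes and 3 mitochondrially encoded mRNAs. Those weights also raised counts between genotypes after TAC, to 12 falling and 2 rising partners, 15 rising PPAR target genes, 9 rising and 1 falling maintenance genes and 5 rising mitochondrially encoded mRNAs. With TAC in controls they gave 13 falling PPAR target genes. For the difference of TAC effects, limma-trend without control sham replicate 1 gave 7 partners and 1 mitochondrially encoded mRNA with a negative difference. In that fit 5 ERR and NRF1 target genes and 2 PPAR target genes had a positive difference. The opposite directions of the ERR and NRF1 target genes with TAC in controls and between genotypes after TAC both rest on the 3 control TAC libraries. Changes also followed transcript length or GC content across genes. Spearman's rho with length was 0.39 for TAC in controls, 0.007 for TAC in knockouts and −0.44 for knockouts against controls after TAC. With GC content it was −0.44, −0.35 and 0.16 in the same order. Between genotypes after sham it was 0.09 with length and −0.25 with GC content. For the difference of TAC effects it was −0.42 with length and 0.26 with GC content. These are correlations over genes, which are not replicates.

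**Figure D5:**
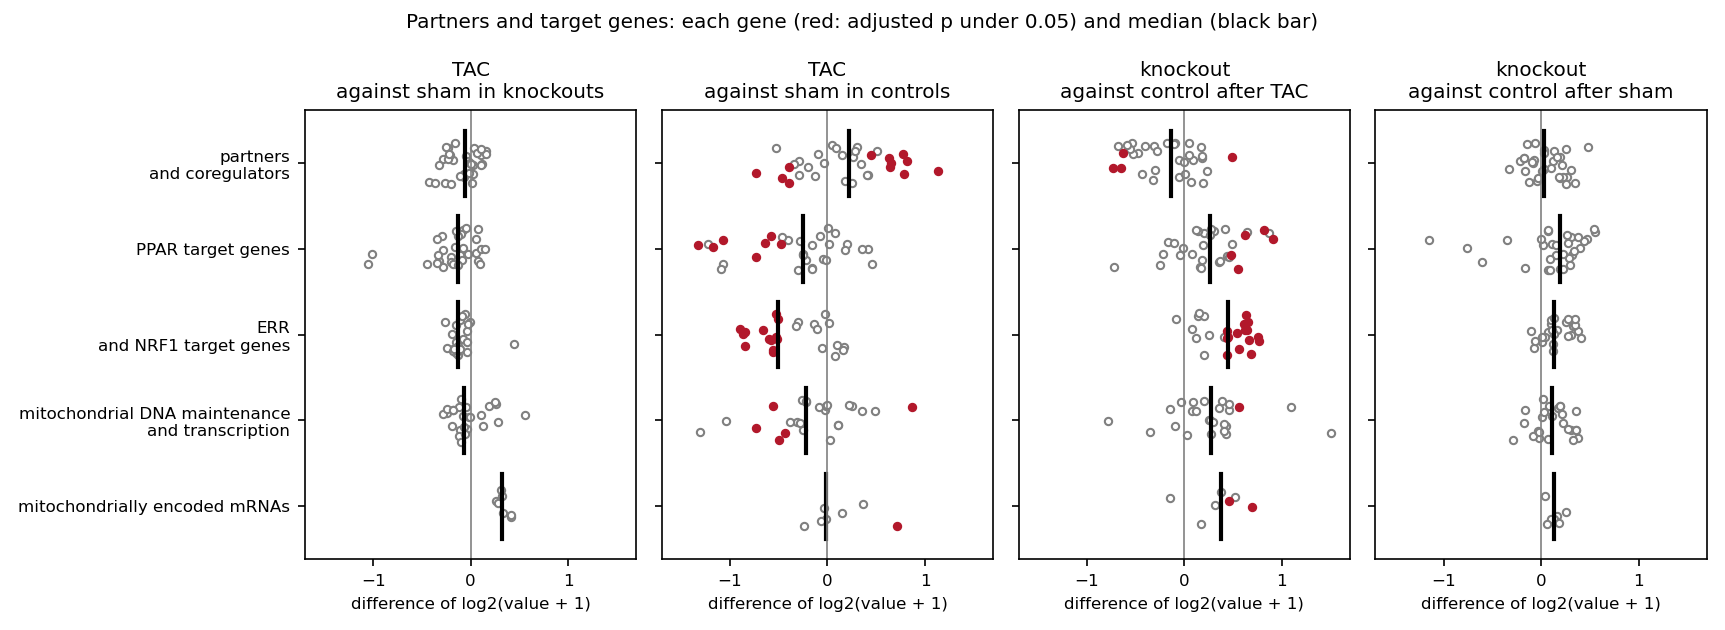
Difference of log2(value + 1) of each tested gene in the 5 lists (points, red where the adjusted p was under 0.05) with the list median as a black bar, a panel per comparison. ERR and NRF1 target genes have a median of −0.51 for TAC in controls and 0.44 for knockouts against controls after TAC, and 0 of them passed in the other panels.

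Ucp1, the brown fat gene through which Ppargc1a is best known, had 0 reads in all 12 libraries. The 9 adipocyte markers summed to 7317 to 9817 normalised counts in knockout TAC, 6637 to 9201 in knockout sham, 5263 to 7503 in control TAC and 7646 to 10020 in control sham hearts. Ucp1 was at 0 in each group and Elovl3 in the control groups, and control TAC hearts had the lowest median sum and the highest Ppargc1a. Most of that sum was Fabp4, a fatty acid binding protein that endothelial cells also make, at 4848, 5336 and 7097 in control TAC hearts and 7176, 8961 and 9571 in control sham hearts. Adipoq, the adipocyte hormone adiponectin, ran the other way, at 11.9, 4.12 and 9.32 in control TAC hearts and 2.13, 0 and 0 in control sham hearts, a difference that did not pass (limma-trend adjusted p = 0.0949).

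The genes whose deviations from their own mean log2 level over the 12 libraries were closest to those of Ppargc1a were Rybp, Flnc and Zfp469, by root mean square differences of 0.23, 0.24 and 0.24. Ppargc1a itself deviated by 0.57, and Ppargc1b ranked 459th with 0.39. For Flnc, a muscle filamin, the levels were 6864 ± 771 normalised counts in knockout TAC, 6529.6 ± 332 in knockout sham, 15952 ± 5771 in control TAC and 5829 ± 1275 in control sham hearts. For Esrra the closest were March2, Snx17 and Map7d1, at 0.08 each, where Esrra deviated by 0.20. For Perm1 they were Qars, Rpa1 and G3bp1, at 0.06, 0.07 and 0.07, where Perm1 deviated by 0.14, and Esrrb was the closest other regulator at rank 310, with 0.13.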

How the data were processed

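Polyadenylated RNA was measured in 12 libraries. Per the submitters' processing notes, STAR, featureCounts and SAMtools were used with the build GRCm38.p6; versions, annotation and strand setting were not stated. The deposited signal values are reads per gene that the authors divided by a size factor of each library, as the values themselves show: 100% were whole multiples of one step within 0.01, and the factors equalled median-of-ratios factors to 3.8e-10. Of 56350 gene IDs, 55480 matched GENCODE M21, which supplied coordinates, exonic length and GC content.

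The 13916 genes that reached a value of 10 in 3 or more libraries were tested with limma-trend (limma 3.58.1, R 4.3.3, robust moderation) on log2(value + 1) with 4 group means, and 5 contrasts were adjusted by Benjamini-Hochberg at 0.05. A pseudocount of 1 understates changes of low genes. The plan named edgeR for counts and limma-trend for normalised values. Alternatives were edgeR 4.0.16 and DESeq2 1.42.0 on recovered reads, TMM and upper-quartile scaling, pseudocounts of 0.5 and 5, other filters, a replicate block, length and GC trends removed by loess (span 0.5), the compared libraries alone, quality weights, and each library left out. The fit was tested on simulated data. Plots were made with matplotlib 3.10.9 in Python 3.11.15.

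The regulators, lists and tests were chosen with earlier results of these data known. All 10 regulators were named, and up to 4 genes of each list with the smallest p in the comparison described, and the 3 genes closest to Ppargc1a, Esrra and Perm1 (predicted genes left out). A single gene among those the rule picked is left out of the text but stays in the counts, and its result is not reported here.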

Additional observations from a re-analysis of the deposited data

Results flagged for a closer look

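The response of Ppargc1b to TAC differed between genotypes. The TAC effect in knockouts minus that in controls was −1.905 on the log2(value + 1) scale and passed the test of that difference (limma-trend adjusted p = 0.0043). All 3 knockout TAC libraries lay below all 3 knockout sham libraries, and all 3 control TAC libraries lay above all 3 control sham libraries. Of all genes, 17.2% had no overlap with TAC in knockouts and 35.5% in controls. The rise in controls passed, and the fall in knockouts did not (limma-trend adjusted p = 0.412). After sham, knockouts lay 0.59 above controls, a gap that did not pass (limma-trend adjusted p = 0.934) and that enters the difference.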

How the results depend on the processing

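Ppargc1b kept its 3 calls (TAC in controls, knockouts against controls after TAC, and the difference of effects) under every alternative run. The other regulators lost calls as follows. Ppargc1a with TAC in controls was lost with the length and GC trend removed (0.77, adjusted p = 0.0823, and 0.107 with the block added) and with quality weights (0.84, adjusted p = 0.0583). Ppargc1a after TAC between genotypes was lost with the compared libraries alone (adjusted p = 0.0535) and with the block and the trends removed (adjusted p = 0.0678). With the compared libraries alone, TAC in controls lost Ppard (adjusted p = 0.0891) and Esrra (adjusted p = 0.0686), and without a filter Ppard was lost (adjusted p = 0.0972). Gained were Ppara and Esrrg after TAC between genotypes with the compared libraries alone (adjusted p = 0.0167 and 0.0149), and with quality weights Esrra and Tfam there and Ppargc1b, Ppard and Esrra with TAC in knockouts. The cause was not tested.

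Counts of genes that passed moved by over 1.5 times in these cases. For TAC in controls the count of 3006 became 1521 with the length and GC trend removed, 1651 with the block added to that, and 1433 with the compared libraries alone, where 2 regulators passed in place of 4. For TAC in knockouts the count of 1 became 23 with DESeq2 (1 regulator), 2 without a filter, 32 with the compared libraries alone and 2410 with quality weights (3 regulators), and 3 with the block and the trends removed. DESeq2 called 1 gene between genotypes after sham. Between genotypes after TAC the count of 1145 became 504 with the trends removed, 565 with the block added (1 regulator) and 4864 with quality weights (4 regulators). For the difference of effects the count of 43 became 480 with DESeq2 (2 regulators), 65 with a pseudocount of 5, 124 without a filter, 23 with the trends removed and 2523 with quality weights. Leaving out each library in turn gave 1533 to 3656 genes and 3 to 6 regulators for TAC in controls, and 0 to 7 genes and 0 regulators for TAC in knockouts. It gave 0 to 1 genes and 0 regulators after sham, 202 to 2144 genes and 1 to 4 regulators after TAC, and 8 to 758 genes and 1 regulator for the difference.

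Whether replicate numbers pair the libraries was not decided. Correlations of same-numbered deviations ran from −0.067 to 0.158, and 6 of 12 libraries correlated best with their own number. The replicate block gave 3151 genes for TAC in controls, 3 for TAC in knockouts, 0 after sham, 1198 after TAC and 47 for the difference, and changed no call of a regulator. No result that passed was reversed. With 3 libraries a group and a control sham library that stands apart, intervals for Ppara and Esrrg are wide. The reads recovered give every regulator at least 92 reads in each library.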
